A study of Mus musculus with 6 samples.

Results

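The genes described are the circadian clock genes Arntl (also called Bmal1), Clock, Per1, Per2, Per3, Cry1, Cry2, Nr1d1, Nr1d2 and Dbp, measured in mouse heart. Every probe set whose only annotated symbol, current or older, is one of these 10 genes was taken, which gave 23 of the 45101 probe sets of the array and 10 of its 18193 named genes. Hearts of mice on the B6 background were compared in 3 groups of 2 arrays, all from animals 8 months old on a chow with 7% fat and 0.15% cholesterol. The first group was apoE-deficient and had received rosiglitazone, an anti-diabetic agonist of the nuclear receptor PPAR-gamma, at 30 mg/kg per day for 2 months from the age of 6 months, and its hearts are labelled failing. The second group was apoE-deficient and untreated, and the third was untreated wild type B6; all groups had echocardiography before the hearts were removed. Drug and failure are carried by the same 2 arrays and cannot be told apart. The labels used here state neither the hour of collection nor that each array is a different animal; the spread behind the p-values is that of these arrays alone and may be technical.

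The mammalian clock is a loop of transcription factors that runs in nearly every cell. ARNTL and CLOCK bind E-box DNA as a pair and switch on the Per, Cry and Nr1d genes; PER and CRY proteins then return to the nucleus and hold the pair back, while the nuclear receptors NR1D1 and NR1D2 (REV-ERB alpha and beta) repress Arntl. DBP, a factor of the PAR bZIP family, is a direct target of the pair and passes the rhythm on to genes with D-box elements. In heart muscle the levels of these transcripts swing over the day, with Arntl opposite in phase to Nr1d1, Dbp and the Per genes, so a single collection gives 1 point of a cycle.

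Deposited signals differed in brightness by group, with trimmed means of 341 and 263 in treated hearts, of 126 and 130 in untreated apoE-deficient hearts and of 175 and 149 in B6. The signals were therefore quantile normalized, and values below are log2 of the normalized signal plus 11.1 unless another scale is named. A number of arrays this small limits the precision of each value. Apoe, the targeted gene, stood at 11.88 ± 0.04 in B6 hearts, at 5.77 ± 0.75 in untreated apoE-deficient hearts and at 6.23 ± 0.04 in treated hearts (SD, n = 2 each), so both groups labelled apoE-deficient lay far below B6. Markers of heart muscle were high on all arrays, with a summed normalized signal of 114888 and 118935 over 8 cardiomyocyte genes in treated hearts and of 129102 to 130079 elsewhere. The treated arrays also read higher on genes listed as markers of other tissues: 6 airway and lung genes summed to 14637 and 15455 there and to at most 121 on the other 4 arrays. Where this signal came from was not tested. In the same hearts 4 brown adipocyte genes summed to 11227 and 11339 against at most 1112, 5 white adipocyte genes to 10498 and 10669 against at most 1133, and 6 lymphocyte genes to 1582 and 1870 against at most 228. Sums over 4 atrial genes were 44129 and 44235 in treated, 18303 and 18403 in untreated apoE-deficient and 31796 and 31946 in B6 hearts. Between treated and untreated apoE-deficient hearts 4 of 6 airway, 4 of 4 brown adipocyte, 3 of 4 tested white adipocyte and 4 of 4 atrial genes were called higher. The airway and lung genes that did not pass, Sftpc and Sftpb, differed by 0.63 and 0.49 (limma adjusted p = 0.226 and 0.545). Of 5 tested lymphocyte genes 2 were called higher, Ighm and Jchain, and Ighm made up 1172 and 1456 of the lymphocyte sums. Of 8 cardiomyocyte genes 5 were called lower and 1 (Tnnt2) higher. No marker was listed at 0, and the part of these markers in the clock gene results was not tested. In such whole-tissue samples fewer cells of a type and less RNA per cell cannot be told apart.

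DNA elements of the clock loop were looked for at the start sites of the 10 genes, and the sequences printed are those in which an element was found by exact spelling. RefSeq promoter windows (GRCm38.p6, 250 bases before to 50 bases after a start site) were held for 9 of the 10 genes in 13 windows, all but Per2. The E-box CACGTG lay in 2 of these windows (Cry1 and Per1) and in 7.15% of all 32841 windows. Its variant CACGTT lay in 3 (Cry1, Cry2 and Nr1d1) and in 4.69% of all, the D-box TTATGTAA in 1 (Per3) and in 0.938%, and the ROR element TAGGTCA in 1 (Arntl) and in 2.61%. The spellings TTACGTAA (0.119% of all windows) and TGGGTCA (3.98%) were in none of the 13 windows. Both strands were searched, no matches in these windows share bases, and AACGTG is CACGTT read on the opposite strand. A match is a description of the letters, not evidence of binding. Capitals mark the matches, and each sequence is given 5′ to 3′ on the strand of its gene.
Per1 (chr11:69098699-69098948, plus strand, 250 bases before the start; E-box 166 bases before it): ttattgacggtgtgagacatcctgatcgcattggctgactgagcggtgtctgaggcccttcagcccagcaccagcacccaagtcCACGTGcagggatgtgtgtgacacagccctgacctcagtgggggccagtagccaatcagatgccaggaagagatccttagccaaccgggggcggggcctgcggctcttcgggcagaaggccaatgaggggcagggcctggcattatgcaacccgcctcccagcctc
Cry1 (chr10:85185055-85185304, minus strand, 250 bases before the start; the variant 79 and the E-box 60 bases before it): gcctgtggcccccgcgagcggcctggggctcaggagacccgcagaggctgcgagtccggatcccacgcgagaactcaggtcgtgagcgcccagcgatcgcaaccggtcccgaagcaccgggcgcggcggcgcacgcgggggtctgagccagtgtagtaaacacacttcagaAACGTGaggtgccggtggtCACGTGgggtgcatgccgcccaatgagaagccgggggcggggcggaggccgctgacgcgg
Cry2 (chr2:92434070-92434319, minus strand, 250 bases before the start; the variant 166 bases before it): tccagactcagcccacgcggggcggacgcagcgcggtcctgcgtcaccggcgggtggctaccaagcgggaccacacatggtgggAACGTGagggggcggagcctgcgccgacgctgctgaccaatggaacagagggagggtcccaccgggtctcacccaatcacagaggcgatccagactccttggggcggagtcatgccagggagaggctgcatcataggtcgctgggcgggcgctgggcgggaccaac
Nr1d1 (chr11:98775378-98775627, minus strand, 250 bases before the start; the variant 28 bases before it): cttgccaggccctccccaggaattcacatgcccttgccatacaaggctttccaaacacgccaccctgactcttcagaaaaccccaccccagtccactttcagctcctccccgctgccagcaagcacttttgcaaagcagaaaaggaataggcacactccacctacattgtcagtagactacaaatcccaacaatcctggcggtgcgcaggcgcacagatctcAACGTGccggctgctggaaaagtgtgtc
Per3 (chr4:151044666-151044915, minus strand, 250 bases before the start; D-boxes 205 and 158 bases before it): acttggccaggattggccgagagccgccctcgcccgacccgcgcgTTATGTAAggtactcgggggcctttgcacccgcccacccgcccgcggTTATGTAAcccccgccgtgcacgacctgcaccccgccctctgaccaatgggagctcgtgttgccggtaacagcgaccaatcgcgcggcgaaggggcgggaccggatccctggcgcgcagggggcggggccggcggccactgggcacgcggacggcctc
Arntl (chr7:113207530-113207558, plus strand, 29 bases around a ROR element that begins 30 bases after a start site): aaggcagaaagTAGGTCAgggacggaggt

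Untreated apoE-deficient and B6 hearts differ by label in genotype alone, and whether both were collected at the same hour is not stated. Per2 and Dbp were higher and Nr1d1 was lower in the apoE-deficient hearts, Per2 by 1.89-fold, Dbp by 1.31-fold and Nr1d1 by 1.89-fold. Arntl lay 2.12-fold lower without passing the test. By limma with Benjamini-Hochberg adjustment over all 27022 tested probe sets, with each gene read from its brightest probe set, 3 of the 10 clock genes passed an adjusted p of 0.05, beside 8.51% of all 13236 genes tested (3.85% higher and 4.66% lower). At an unadjusted p under 0.05 there were 4 of the 10, beside 25.2%. The arrays of the groups did not overlap for 8 of the 10 (5 above and 3 below), beside 52.8% of all genes. The median difference over the 10 genes was 0.20, and over all tested genes 0.00060. Other markers moved in this comparison too: 4 of 4 atrial genes (median -0.99) and 3 of 4 tested white adipocyte genes were called lower. The remaining tested white adipocyte gene, Retn, lay higher without passing (1.07, limma adjusted p = 0.146). Of 4 macrophage genes 3 were called higher and 1 lower (median 0.74). The 1 tested red blood cell gene, Alas2, was called lower (-1.20). Summed macrophage signal was 4833 and 4974 in untreated apoE-deficient and 4188 and 4351 in B6 hearts, and the part of these markers was not tested.

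**Figure D1:**
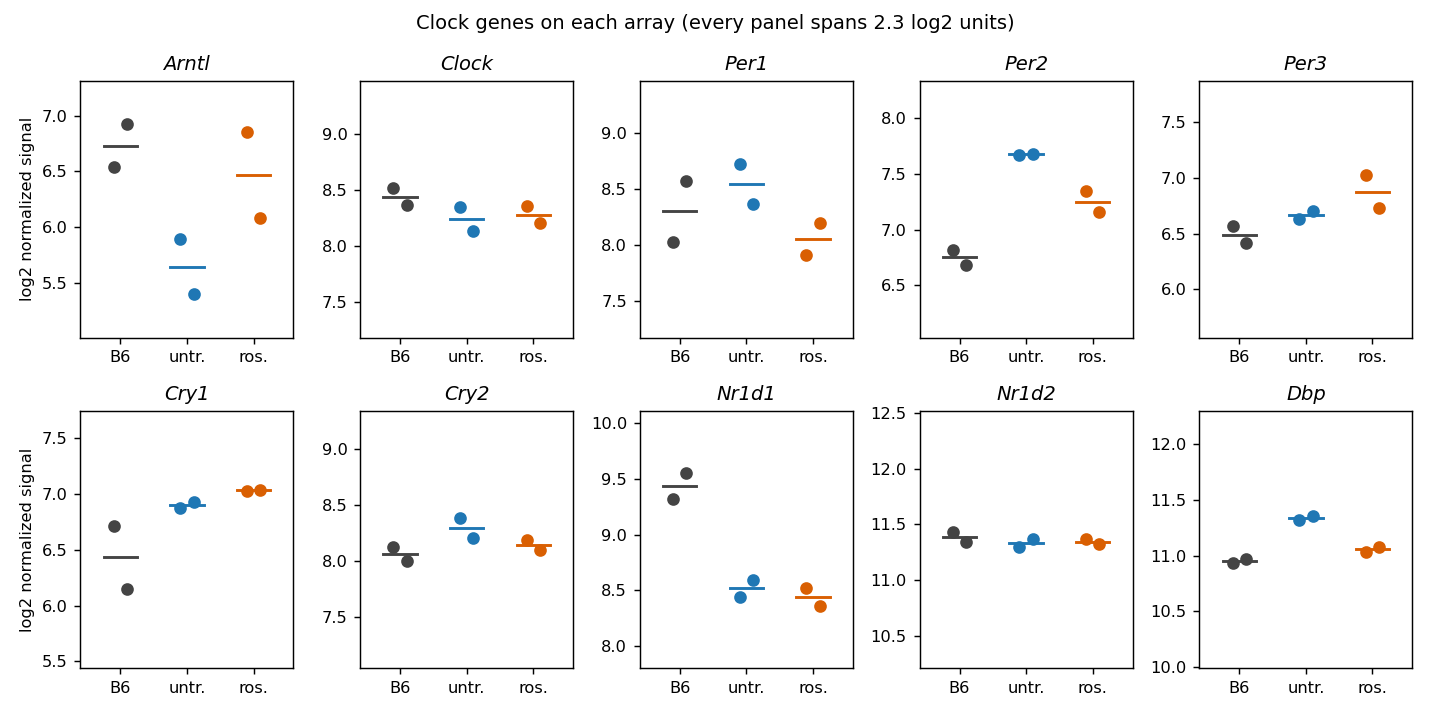
Log2 normalized signal of the brightest probe set of each of the 10 clock genes (vertical axis) in B6, untreated apoE-deficient (untr.) and rosiglitazone-treated apoE-deficient (ros.) hearts; points are the 6 single arrays and lines the means of 2. The B6 arrays of Nr1d1 (9.32 and 9.55) lie above the other 4, and the untreated apoE-deficient arrays of Per2 (7.67 and 7.68) and Dbp (11.32 and 11.35) lie above all others of their genes.

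Among the activators, the brightest Arntl probe set read 5.89 and 5.40 in untreated apoE-deficient hearts and 6.54 and 6.92 in B6 hearts. Both apoE-deficient arrays lay below both B6 arrays. The difference was -1.08 ± 0.31 (SE; 95% interval -1.80 to -0.37; limma adjusted p = 0.0769) and did not pass. The second Arntl probe set read 4.93 and 5.30 against 6.16 and 6.29, again without overlap, and differed by -1.12 ± 0.39 (adjusted p = 0.130). The absolute difference of Arntl exceeded that of 98.3% of all tested genes, and with the probe sets of a gene averaged it passed (-1.10, adjusted p = 0.0176). Clock, the DNA-binding partner of ARNTL, read 8.35 and 8.13 against 8.52 and 8.36, just below the B6 arrays, a difference of -0.20 ± 0.12 (adjusted p = 0.353). The other tested Clock probe sets differed by -0.56 ± 0.18 and -0.63 ± 0.19 (adjusted p = 0.100 and 0.0907), so that all 3 lay lower and none passed.

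Of the repressors of the PER family, Per2 read 7.67 and 7.68 in untreated apoE-deficient hearts and 6.82 and 6.68 in B6 hearts. The groups were well apart, with a gap far wider than the spread within either. Per2 was higher by 0.92 ± 0.15 (limma adjusted p = 0.00940), more than 96.9% of all genes in absolute size. Its other probe sets lay on the same side, at 6.92 and 6.69 against 6.32 and 5.82 (0.74 ± 0.24, adjusted p = 0.103) and at 6.09 and 5.86 against 5.79 and 5.40 (0.38 ± 0.30, adjusted p = 0.497), but did not pass. The Per2 call was lost without B6 replicate 2 (0.86, adjusted p = 0.0601) and with the 3 probe sets averaged (0.68, adjusted p = 0.0653). Per1, the family member that responds fastest to hormones and light, read 8.72 and 8.37 against 8.02 and 8.58, and the groups overlapped (0.25 ± 0.19, adjusted p = 0.501). Per3 read 6.64 and 6.70 against 6.57 and 6.41 (0.18 ± 0.19, adjusted p = 0.639). Its other tested probe sets differed by -0.25, 0.22, 0.30 and -1.13, with both signs, and did not pass. The largest of these lay lower without overlap (limma adjusted p = 0.205).

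The cryptochromes are the partners of PER that block the ARNTL and CLOCK pair directly. Cry1 read 6.87 and 6.93 in untreated apoE-deficient and 6.72 and 6.15 in B6 hearts, and Cry2 read 8.38 and 8.20 against 8.13 and 8.00. Both lay above B6 on every array, and the B6 arrays of Cry1 were far apart from each other. Neither passed, at 0.47 ± 0.22 for Cry1 (limma adjusted p = 0.242) and 0.23 ± 0.11 for Cry2 (adjusted p = 0.273).

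The nuclear receptors of the second loop differed from each other. Nr1d1 read 8.44 and 8.60 in untreated apoE-deficient and 9.32 and 9.55 in B6 hearts, which as normalized signal is 336 and 376 against 627 and 738. Both apoE-deficient arrays lay far below both B6 arrays. Nr1d1 was lower, by a difference of -0.92 ± 0.11 (limma adjusted p = 0.00223), larger in absolute size than that of 96.8% of all genes. It has 1 probe set, so there was no other reading to set beside this one. Nr1d2, its close paralog, read 11.29 and 11.37 against 11.43 and 11.34 and overlapped, with a difference of -0.056 ± 0.05 and a 95% interval from -0.17 to 0.06 (adjusted p = 0.569). Its dimmer probe set overlapped too, at 7.09 and 7.17 against 7.21 and 6.75 (0.15 ± 0.20, adjusted p = 0.709).

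Dbp, the output factor, read 11.32 and 11.35 in untreated apoE-deficient and 10.93 and 10.97 in B6 hearts on its brightest probe set. The arrays within a group were close to one another and the groups were apart. It was higher by 0.38 ± 0.05 (limma adjusted p = 0.00233). The second Dbp probe set, nearly as bright, read 10.80 and 10.95 against 10.87 and 10.80 and overlapped (0.040 ± 0.06, adjusted p = 0.755). The rise of Dbp therefore rested on the brightest probe set, although the mean of both still passed (0.21, adjusted p = 0.0329). Without the trend of variance on intensity in the fit none of the 3 clock gene calls of this comparison held (4 of 10 genes had an unadjusted p under 0.05), where only 10 of 27022 probe sets passed in all.

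**Figure D2:**
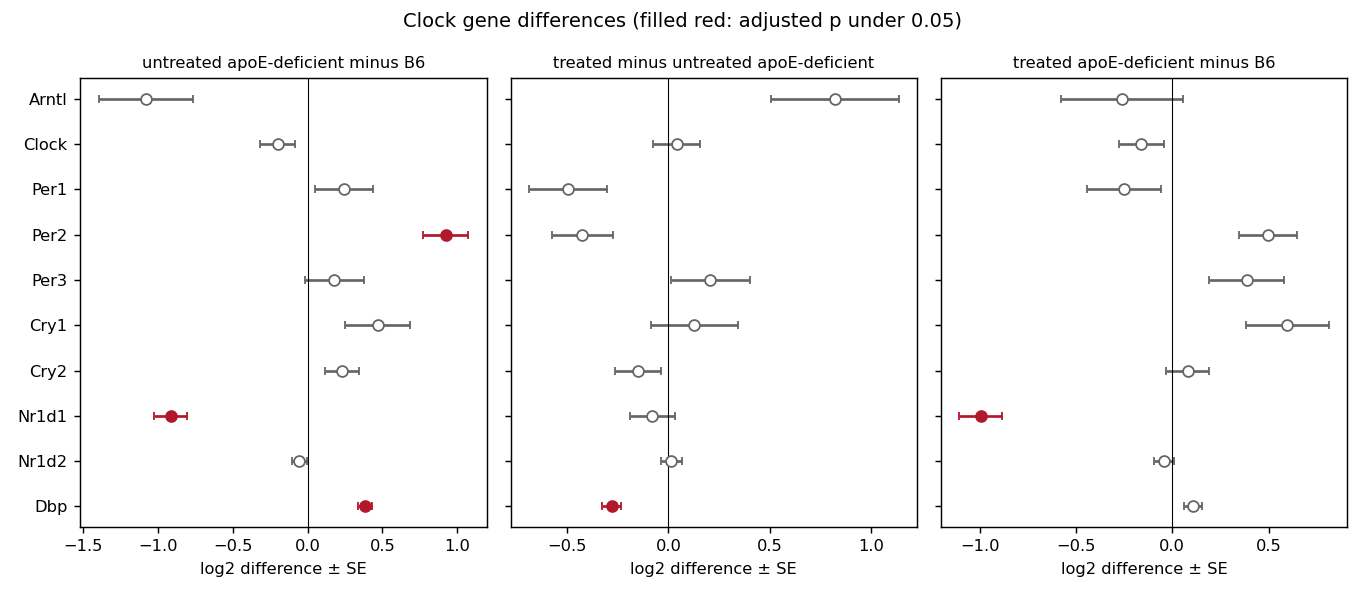
Log2 differences of the brightest probe set of each clock gene in the 3 comparisons; points are the fitted differences, bars their SE, and filled red points passed an adjusted p of 0.05. Nr1d1 lies near -1 against B6 in both apoE-deficient groups and near 0 between them. The brightest Dbp probe set is higher in untreated apoE-deficient than in B6 hearts (0.38) and lower in treated than in untreated hearts (-0.28). The second Dbp probe set, not drawn, differs by 0.040 and 0.21 in the same comparisons.

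Treated against untreated apoE-deficient hearts addressed rosiglitazone and the failing state together; this comparison shares its untreated arrays with the one above. With each gene read from its brightest probe set, Dbp was the 1 clock gene of 10 that passed, lower by 1.21-fold in treated hearts. Of all genes tested 23.7% passed (11.4% higher and 12.3% lower). The second Dbp probe set passed with the opposite sign (0.21, limma adjusted p = 0.0406), so no direction is settled for Dbp. Arntl lay 1.77-fold higher and Per1 and Per2 lay lower on all arrays without passing. At an unadjusted p under 0.05 there were 4 of the 10, beside 37.0% of all genes, and 7 did not overlap between the groups (3 above and 4 below), beside 63.5%. The median difference of the 10 genes was -0.032 and that of all genes -0.034.

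Arntl read 6.85 and 6.09 in treated and 5.89 and 5.40 in untreated apoE-deficient hearts. Both treated arrays lay above both untreated ones, and 1 of them reached the range of the B6 arrays. The difference was 0.82 ± 0.31 (95% interval 0.11 to 1.53; limma adjusted p = 0.104). On the second probe set the treated arrays traded places, at 5.19 and 6.29 against 4.93 and 5.30, and the groups overlapped (0.63 ± 0.39, adjusted p = 0.305). The treated arrays were further apart on Arntl than on the brightest probe set of any other clock gene, and the order of the arrays depended on the probe set. Arntl passed when its probe sets were averaged (0.73, adjusted p = 0.0352). Clock, at 8.36 and 8.21 against 8.35 and 8.13, overlapped (0.040 ± 0.12, adjusted p = 0.853).

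Per2 read 7.34 and 7.15 in treated hearts, below the 7.67 and 7.68 of untreated apoE-deficient hearts and above the 6.82 and 6.68 of B6. Its difference from untreated hearts was -0.42 ± 0.15 (limma adjusted p = 0.0847). The dimmer Per2 probe sets also lay lower on every treated array, by differences of -0.40 (adjusted p = 0.285) and -0.47 (adjusted p = 0.313). Per1 read 7.91 and 8.19 against 8.72 and 8.37 without overlap (-0.49 ± 0.19, adjusted p = 0.110). Per3 lay slightly higher, at 7.02 and 6.73 against 6.64 and 6.70 (0.21 ± 0.19, adjusted p = 0.519). Cry1, at 7.03 on both treated arrays, differed by 0.13 ± 0.22 (adjusted p = 0.735), and Cry2, at 8.18 and 8.10, by -0.15 ± 0.11 (adjusted p = 0.410). None of these repressors passed.

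Nr1d1 read 8.52 and 8.36 in treated and 8.44 and 8.60 in untreated apoE-deficient hearts, and the groups overlapped. Its difference was -0.079 ± 0.11, with a 95% interval from -0.33 to 0.17 (limma adjusted p = 0.678). The difference of untreated from B6 hearts was -0.92 (95% interval -1.17 to -0.67). Both differences use the untreated arrays, and they were not tested against each other. Nr1d2 differed by 0.015 ± 0.05 (95% interval -0.10 to 0.13; adjusted p = 0.874) at 11.37 and 11.32. Its dimmer probe set did not follow: at 6.56 and 6.54 against 7.09 and 7.17 it lay lower by a difference of -0.58 ± 0.20, which did not pass (adjusted p = 0.0716).

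Dbp read 11.03 and 11.08 in treated and 11.32 and 11.35 in untreated apoE-deficient hearts, and the treated arrays stood just above the B6 arrays (10.93 and 10.97). The difference was -0.28 ± 0.05 (limma adjusted p = 0.00314). The second Dbp probe set went the other way: it read 11.10 and 11.07 against 10.80 and 10.95, and was higher in treated hearts by 0.21 ± 0.06 (adjusted p = 0.0406). Both calls passed with opposite signs, and averaging the probe sets left -0.034 (adjusted p = 0.651), so these arrays do not settle a direction for Dbp in treated hearts. On signals with no scaling the brightest probe set read higher in treated hearts as well (0.83), as did every clock gene there. The call on the brightest probe set was also lost without the trend of variance on intensity (0 of 10 clock genes, 2 at an unadjusted p under 0.05).

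**Figure D3:**
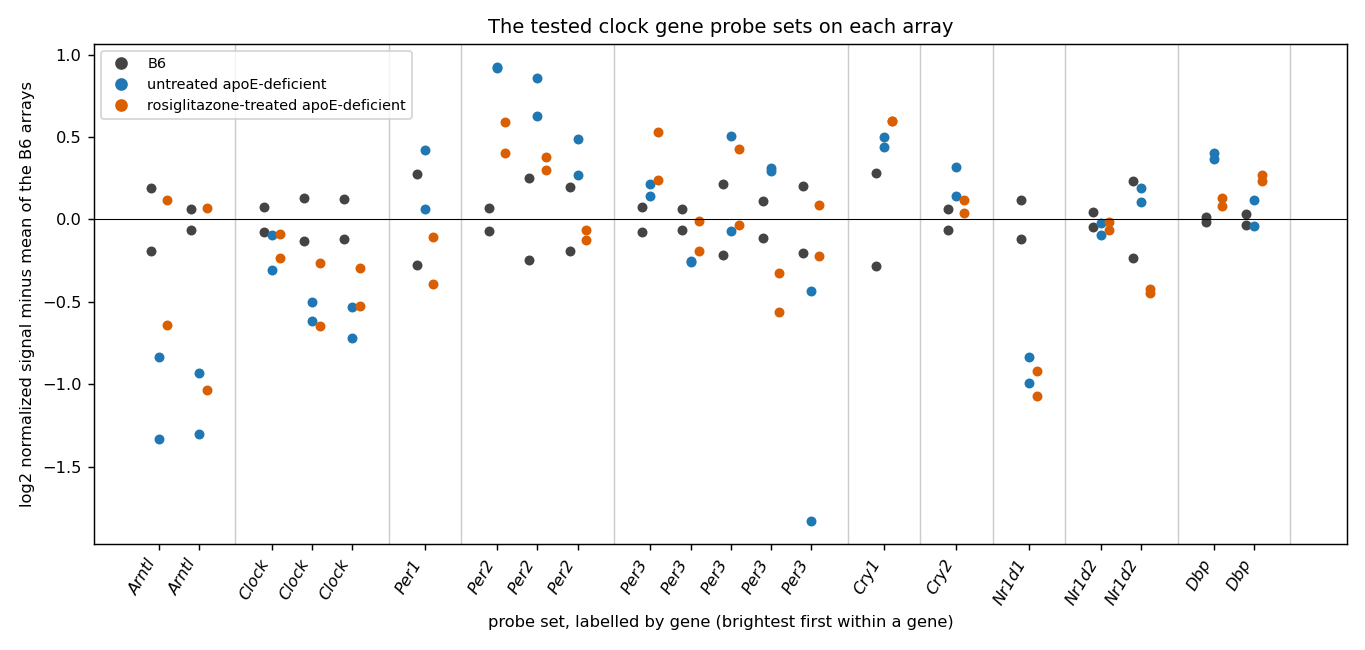
Log2 normalized signal minus the mean of the B6 arrays (vertical axis) for the 21 tested clock gene probe sets, grouped by gene with the brightest first; points are single arrays, coloured by group. The probe sets of Arntl, Clock and Per2 lie largely on the same side of 0 in untreated hearts, while those of Per3, Nr1d2 and Dbp differ among themselves.

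Treated against B6 hearts differ in both genotype and treatment, and share arrays with both comparisons above. Nr1d1 was 1.99-fold lower in treated hearts and was the 1 clock gene of 10 that passed, beside 18.7% of all genes (8.78% higher and 9.87% lower). Its treated arrays (8.52 and 8.36) lay below the B6 arrays (9.32 and 9.55) by -0.99 ± 0.11 (limma adjusted p = 4.51e-04), a difference larger than that of 96.7% of all genes in absolute size. This call was kept in every alternative with scaled arrays, the one without a variance trend included. Nr1d1 has 1 probe set, so averaging the probe sets of a gene left its values as they were and was no check on it. At an unadjusted p under 0.05 there were 3 of the 10 (all genes 32.3%), and 6 did not overlap (4 above and 2 below; all genes 61.4%).

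Per2 and Cry1 came nearest to passing among the other clock genes of treated hearts. Per2 lay above B6 on both arrays by 0.50 ± 0.15 (limma adjusted p = 0.0597), and Cry1 by 0.60 ± 0.22 (95% interval 0.11 to 1.09; adjusted p = 0.107). Cry1 passed without B6 replicate 1 (0.88, adjusted p = 0.0425) and lay at 0.32 without B6 replicate 2 (adjusted p = 0.447). Per2 passed with arrays scaled to a trimmed mean (0.56) or to their medians (0.56), but its other probe sets differed by 0.34 (adjusted p = 0.423) and -0.093 (adjusted p = 0.890), and the mean of all 3 was 0.25 (adjusted p = 0.431). Arntl overlapped B6 (-0.26 ± 0.31, adjusted p = 0.679). Clock lay just below on its brightest probe set (-0.16 ± 0.12, adjusted p = 0.447). Its other tested probe sets lay below B6 on both treated arrays without passing (-0.46 ± 0.18 and -0.41 ± 0.19, adjusted p = 0.134 and 0.217). Per1, Per3, Cry2 and Nr1d2 had adjusted p-values from 0.251 to 0.732 on their brightest probe sets. The brightest Dbp probe set differed by 0.11 ± 0.05 (adjusted p = 0.187), while the second was higher by 0.25 ± 0.06 (adjusted p = 0.0243).

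Probe sets of a gene did not always move together, and 21 of the 23 were bright enough to be tested. Of these, 3 passed between untreated apoE-deficient and B6 hearts (7.06% of all probe sets), 2 between treated and untreated hearts (19.8%) and 2 between treated and B6 hearts (15.0%). Per3 was the most divided: it has 6 probe sets, 5 of them tested, and in treated against untreated hearts these differed by 0.21, 0.15, -0.023, -0.75 and 1.07. The probe set at 1.07 read 3.87 and 5.27 on the untreated arrays, where the spread between replicates was wide (adjusted p = 0.164). The untested probe sets, of Clock and of Per3, were dim, the Per3 one at 4.71 and 4.42 in treated, 5.49 and 4.99 in untreated and 4.01 and 3.98 in B6 hearts. The 2 Arntl probe sets, the 3 tested Clock probe sets and the 3 Per2 probe sets each had differences of 1 sign between untreated apoE-deficient and B6 hearts.

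**Figure D4:**
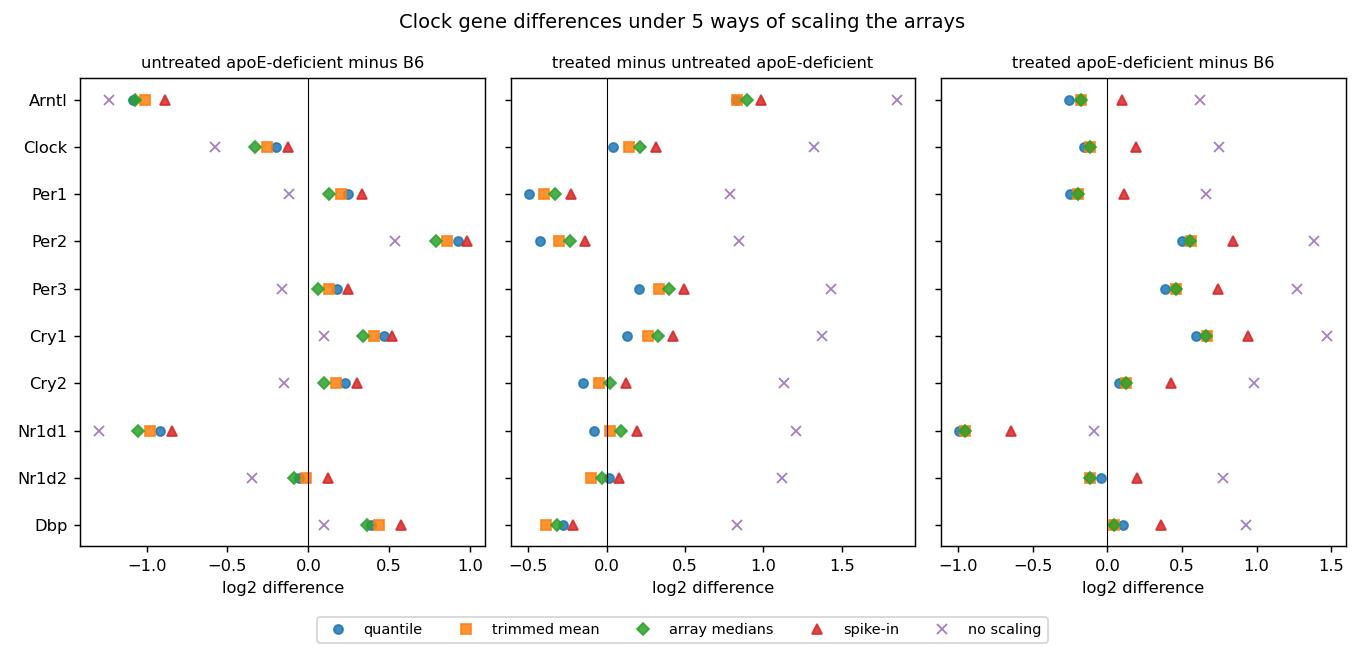
Log2 differences of the 10 clock genes in the 3 comparisons under 5 ways of scaling the arrays; each symbol is a scaling, each line of symbols a gene, and the vertical line marks 0. Between treated and untreated hearts spike-in scaling gives the highest of the scaled values for each gene. Per2, for example, lies at -0.42 with quantile, -0.30 with trimmed-mean, -0.23 with median and -0.13 with spike-in scaling. With no scaling all 10 differences of treated from untreated hearts are above 0.

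The way of scaling sets where 0 lies, because brightness followed the groups. The median difference of all tested probe sets between treated and untreated hearts was -0.016 after quantile normalization, 0.086 with centred medians, 0.020 with trimmed means, 0.18 with the spiked-in hybridization controls and 1.13 with no scaling. In each of the 5 scalings Arntl had the highest and Per1 the lowest difference of the 10 clock genes. Between untreated apoE-deficient and B6 hearts the Nr1d1 call was kept under all 5 scalings, and those of Per2 and Dbp under all but no scaling, where Nr1d1 and Arntl (-1.23) were called lower.

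Further clock regulators were taken as a list of 18 genes, of which 16 had a probe set and 13 were bright enough to be tested. The list was chosen with earlier results of these data known, so its shares beside all genes are descriptions and not tests. Between treated and untreated apoE-deficient hearts 6 of the 13 passed, all lower, beside 12.3% of all genes lower; the median of the 13 was -0.30, and that of all genes -0.034. With spike-in scaling 1 was called lower and 1 higher, and with no scaling 10 higher. Over all 27022 tested probe sets, 5568 of 6993 calls were higher with spike-in scaling and 22732 of 22755 with no scaling. Between untreated apoE-deficient and B6 hearts 2 of 13 passed, both higher, beside 3.85%. Between treated and B6 hearts 0 of 13 passed by limma (6 at an unadjusted p under 0.05, beside 32.3% of all genes).

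Tef and Ciart were called in both of the first pair of comparisons, which share the untreated arrays. Tef, a PAR bZIP factor like DBP, read 10.52 and 10.52 in treated, 10.97 and 10.96 in untreated apoE-deficient and 10.44 and 10.57 in B6 hearts. The untreated apoE-deficient arrays stood above the other 4. Tef was higher than in B6 hearts by 0.46 ± 0.06 (limma adjusted p = 0.00259) and lower in treated than in untreated hearts by a difference of -0.44 ± 0.06 (adjusted p = 8.22e-04). Ciart, a repressor of the ARNTL and CLOCK pair, read 7.79 and 8.07, then 8.51 and 8.68, then 8.10 and 7.94 in the same order of groups. It followed the same pattern, at 0.57 ± 0.13 against B6 (adjusted p = 0.0338) and -0.66 ± 0.13 in treated against untreated hearts (adjusted p = 0.00732). With the probe sets of a gene averaged, the Tef call against B6 was lost (0.34, adjusted p = 0.0903). The first of these Ciart calls was lost on leaving out any 1 of the 4 arrays compared (0.49 to 0.66), and the second without treated replicate 1 (-0.52) or untreated replicate 2 (-0.57).

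The other regulators called lower in treated than in untreated hearts were Nfil3, Timeless, Btrc and Rora. Nfil3, which represses at D-boxes, read 6.59 and 6.62 in treated, 7.42 and 7.52 in untreated apoE-deficient and 6.61 and 7.24 in B6 hearts (-0.86 ± 0.22 between the first pair of groups, limma adjusted p = 0.0220). The B6 arrays were further apart than those of either other group. Timeless, a replication fork protein related to a fly clock gene, differed by -0.85 ± 0.18 (adjusted p = 0.0115), and Btrc, an F-box protein that marks PER for breakdown, by -0.54 ± 0.12 (adjusted p = 0.0119). Rora, which activates Arntl at the element that NR1D1 binds, differed by -0.30 ± 0.09 (adjusted p = 0.0468). Each of these calls was lost on leaving out single arrays: Nfil3 without any 1 of the treated or untreated arrays (-0.92 to -0.82), Timeless without treated replicate 1 (-0.72) or untreated replicate 2 (-0.66), Btrc without treated replicate 1 (-0.48) or untreated replicate 1 (-0.49), and Rora in 5 of the 6 cases. Without the variance trend 0 of 13 passed (6 at an unadjusted p under 0.05). With the probe sets of a gene averaged, Btrc (0.030) and Rora (0.039) turned sign and the Timeless call was lost. Of the 11 regulators tested in that setting 3 were called lower. The regulators that did not pass in any comparison were Rorb, Bhlhe40, Bhlhe41, Hlf, Csnk1d, Csnk1e and Fbxw11.

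**Figure D5:**
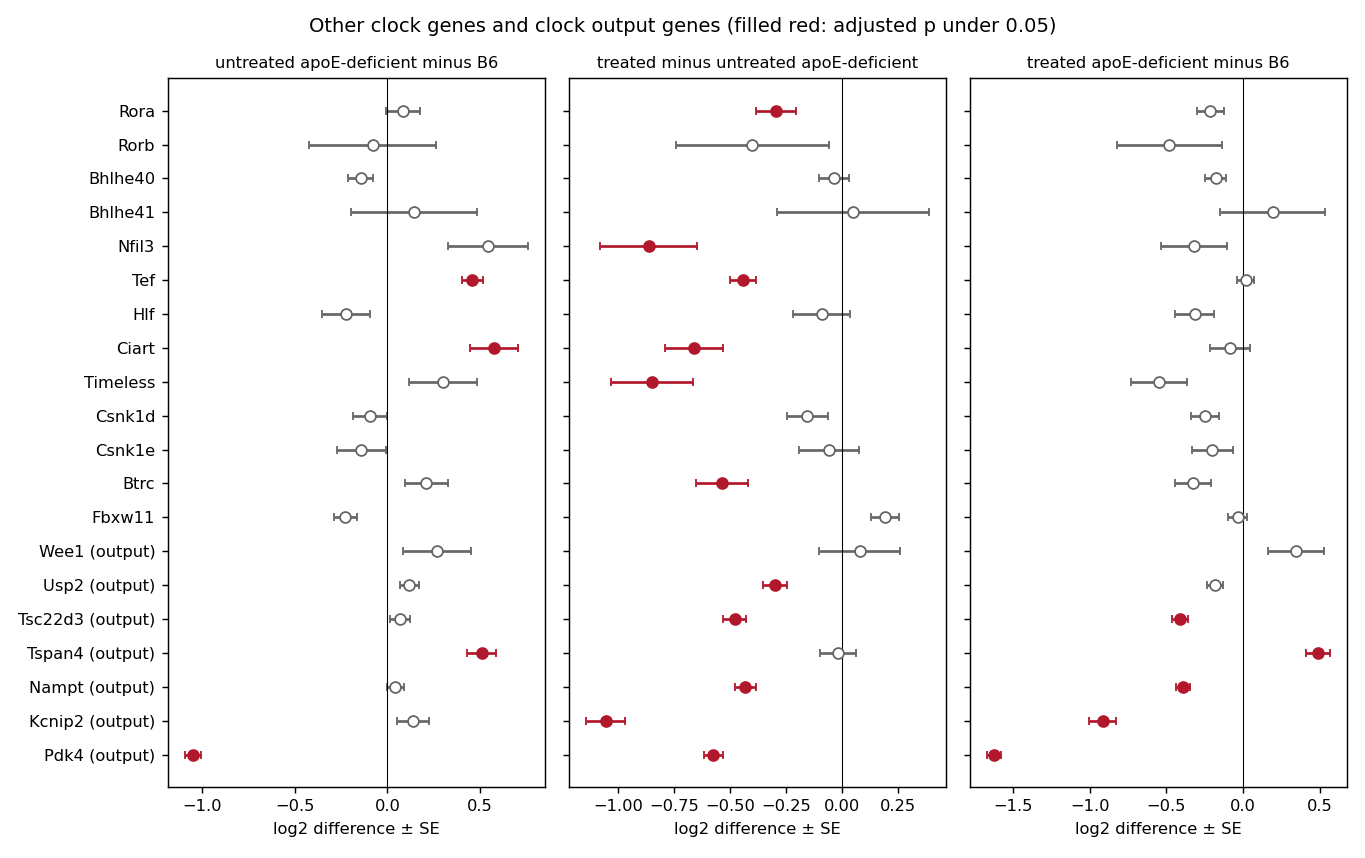
Log2 differences with their SE for the tested genes among further clock regulators (13) and clock-controlled genes (7, marked output), in the 3 comparisons; filled red points passed an adjusted p of 0.05. Between treated and untreated hearts 6 regulators and 5 clock-controlled genes are filled, all below 0.

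Clock-driven output genes were taken as a list of 8, of which 7 were on the array and tested. Whether each of them follows the clock in heart was not tested. Between treated and untreated apoE-deficient hearts 5 of the 7 were called lower, beside 12.3% of all genes, with a median of -0.43. With no scaling 6 were called higher, as were 22732 of all 27022 tested probe sets. This list was also chosen with earlier results of these data known, so its shares beside all genes are descriptions and not tests. All 7 were bright, with mean signals from the 78.8th to the 98.0th percentile of all probe sets. Kcnip2, a subunit of a repolarizing potassium channel, read 10.28 and 10.58 in treated, 11.44 and 11.53 in untreated apoE-deficient and 11.34 and 11.36 in B6 hearts. The treated arrays stood below all others, and Kcnip2 was lower than in untreated hearts (-1.06 ± 0.09, limma adjusted p = 6.73e-05). Pdk4, a kinase that restrains glucose oxidation, read 10.88 and 10.96, then 11.49 and 11.50, then 12.54 and 12.55. Its groups formed 3 separate levels, with -1.05 ± 0.04 for untreated apoE-deficient against B6 hearts (adjusted p = 4.30e-06) and -0.58 ± 0.04 for treated against untreated hearts (adjusted p = 4.09e-05).

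Tsc22d3, a glucocorticoid-induced factor, and Nampt, an enzyme of NAD salvage, were lower in treated than in untreated hearts by differences of -0.48 ± 0.05 (limma adjusted p = 3.09e-04) and -0.43 ± 0.05 (adjusted p = 3.13e-04). Usp2, a deubiquitinating enzyme, was lower by a difference of -0.30 ± 0.05 (adjusted p = 0.00427). Tspan4, a tetraspanin, read 9.70 and 9.74 in treated, 9.83 and 9.64 in untreated apoE-deficient and 9.24 and 9.21 in B6 hearts. It was higher in untreated apoE-deficient than in B6 hearts (0.51 ± 0.08, adjusted p = 0.00714), a call lost without B6 replicate 2 (0.49). Wee1, a kinase that holds back mitosis, passed in none of the 3 comparisons. In treated against B6 hearts 4 genes were lower (Tsc22d3, Nampt, Kcnip2 and Pdk4) and Tspan4 was higher, beside 18.7% of all genes in either direction; with spike-in scaling 2 were lower and 2 higher, the calls of Tsc22d3 (-0.12) and Nampt (-0.11) being lost. Without the variance trend Pdk4 alone kept its call there, while between treated and untreated hearts Tsc22d3, Kcnip2 and Pdk4 kept theirs and between untreated apoE-deficient and B6 hearts 0 of 7 passed by limma (2 at an unadjusted p under 0.05). Over the 8 cardiomyocyte markers 5 were called lower and 1 higher in treated than in untreated hearts, with a median of -0.17, and their part in these results was not tested.

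The genes whose log2 values lay nearest to those of Arntl and Dbp over the 6 arrays, after each gene was set to a mean of 0, were taken by Euclidean distance. For Arntl they were Hyi (0.42), Zfp994 (0.47), Bmp7 (0.50), 4632427E13Rik (0.52) and AA414768 (0.53). For Dbp, read from its brightest probe set, they were Gabarapl1 (0.040), Flad1 (0.061), Pde7a (0.062), Rab23 (0.078) and Ddx42 (0.089). Under the other scalings 2 to 3 of these 5 stayed among the nearest for Arntl and 1 of 5 for Dbp, so the names depend on the scaling. The 6 points share only 3 conditions.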

How the data were processed

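Mouse heart RNA was hybridized to 6 Affymetrix arrays (3 groups of 2). Linear intensity values per probe set were deposited by the authors; GCOS is named in the submitters' processing notes, and its scaling is not given in the sources used here. Probe sets were named from GEO's platform annotation, current or older symbols: 34945 had 1 symbol, 932 several and 9160 none. The 64 control probe sets were left out, the other 45037 quantile normalized, 11.1 added and log2 taken. Probe sets with a mean above the 40th percentile (27022) were fitted with limma 3.58.1 (R 4.3.3) in 1 model of 3 groups (3 residual and 5.97 prior degrees of freedom, variance trend on intensity, Benjamini-Hochberg adjusted p below 0.05). A gene was read from its brightest probe set. All 10 clock genes are named; of the lists, the genes that passed are described. The members and lists were chosen with earlier results of these data known. The 3 comparisons share arrays. Same-numbered arrays were checked for pairing: correlations of their deviations were 0.020, 0.033 and -0.0063. No shared deviation was seen, but this cannot show that the arrays were unpaired. The labels do not say what a shared number marks. The fit was tested on simulated data, and 19 alternatives were run for each result.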

Additional observations from a re-analysis of the deposited data

How the results depend on the processing

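Per comparison, 1 (treated against untreated apoE-deficient hearts), 3 (untreated apoE-deficient against B6) and 1 (treated against B6) of the 10 clock genes passed. With no scaling the counts were 10, 2 and 8, and with spike-in scaling 2, 3 and 6. Without the variance trend they were 0, 0 and 1, with 2, 4 and 4 genes at an unadjusted p under 0.05 by limma. Of all 27022 tested probe sets, 5355, 1909 and 4066 passed in the main fit. With no scaling 22755, 1548 and 18758 of them passed, with spike-in scaling 6993, 3045 and 7614, and without the trend 1653, 10 and 626. Among the 10 clock genes, treated against B6 hearts also gave 2 with array medians centred, trimmed-mean scaling, a dim filter at the 60th percentile, or the mean of a gene's probe sets. Leaving out single arrays gave 1 to 1, 2 to 3 and 1 to 2. With the replicate block the counts stayed 1, 3 and 1, and the call lost among all genes named was Rora (-0.30, adjusted p = 0.0551).

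With no scaling, differences of treated from untreated hearts turned for Per1 (0.79), Per2 (0.85), Cry2 (1.13), Nr1d1 (1.21), Dbp (0.83), Rora (0.95), Nfil3 (0.39), Tef (0.71), Ciart (0.62), Timeless (0.41), Btrc (0.74), Usp2 (0.81), Tsc22d3 (0.67), Nampt (0.72), Kcnip2 (0.066) and Pdk4 (0.54). Those of untreated apoE-deficient from B6 hearts turned for Per1 (-0.12), Per3 (-0.16) and Cry2 (-0.15), and those of treated from B6 hearts for Arntl (0.62), Clock (0.75), Per1 (0.66), Nr1d2 (0.77), Tsc22d3 (0.45) and Nampt (0.46). Spike-in scaling turned Cry2 (0.12) and Nr1d1 (0.19) in treated against untreated hearts, Nr1d2 (0.12) in untreated apoE-deficient against B6 hearts, and Arntl (0.099), Clock (0.19), Per1 (0.11) and Nr1d2 (0.20) in treated against B6 hearts. In treated against untreated hearts, centred medians turned Cry2 (0.024), Nr1d1 (0.092) and Nr1d2 (-0.028), trimmed means Nr1d1 (0.021) and Nr1d2 (-0.10), and the mean of probe sets Per3 (-0.0032), Nr1d2 (-0.28), Btrc (0.030) and Rora (0.039), with Nr1d2 (0.046) in untreated apoE-deficient against B6 hearts. Leaving out single arrays gave ranges across 0 in treated against untreated hearts for Clock (-0.066 to 0.15), Nr1d1 (-0.16 to 0.000745) and Nr1d2 (-0.019 to 0.049), in untreated apoE-deficient against B6 hearts for Per1 (-0.032 to 0.52), and in treated against B6 hearts for Arntl (-0.62 to 0.12), Per1 (-0.53 to 0.027) and Nr1d2 (-0.089 to 0.0068). The cause was not tested.

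Calls higher among all called probe sets were 50.5%, 44.8% and 49.6% in the 3 comparisons, against 79.6%, 81.0% and 92.5% with spike-in scaling, 64.7%, 25.7% and 45.8% with centred medians and 99.9%, 4.72% and 99.7% with no scaling. Brightness follows the groups, so scaling and group cannot be told apart. The labels do not state the hour of collection, or whether it was the same for all groups. With 2 arrays a group, a different hour of collection, a shift in phase and a change in level cannot be told apart. Probe sets under 4.99 on the log2 scale were not tested.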
